A study of Rattus norvegicus with 48 samples.

Results

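Small RNA sequencing of serum from Zucker Diabetic Fatty (ZDF) rats and wild-type (WT) rats that had both received parathyroid hormone (PTH) was used to compare the circulating miRNAs of the genotypes under this treatment. The comparison comprised 10 of the 48 samples of the series, all serum libraries labelled with PTH, 5 from ZDF and 5 from WT rats. The ZDF rats were male and homozygous for the fa mutation of the leptin receptor (ZDF fa/fa), and the WT rats were male Zucker lean rats (ZDF +/+). Both groups had eaten a high-fat, high-carbohydrate chow and carried a surgical defect of 3 mm in the femur midshaft. Both had been injected subcutaneously with PTH at 75 µg/kg on 5 days per week from an age of 11 weeks, and serum was taken after 12 weeks of treatment. Each library was prepared from RNA of 100 µL serum. The mutation is present in all tissues, so contributions of bone and of metabolism to the serum cannot be told apart. Placebo serum (5 ZDF, 5 WT) and anti-sclerostin serum (4 ZDF, 4 WT) from rats of the same genotypes were tested separately and share no sample with the comparison under PTH. The sample titles carry the name ZDF for the WT rats too, and the genotype was therefore taken from the group label.

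PTH is secreted by the parathyroid glands and raises blood calcium, and when it is given intermittently it stimulates osteoblasts and bone formation. miRNAs are short RNAs that pair with messenger RNAs mainly through their seed, bases 2 to 8, and lower the output of those messengers. Serum has no cells of its own. Its miRNAs are released by blood cells, vessel walls, liver, muscle and other organs within vesicles, lipoproteins and protein complexes, and a few of them are characteristic of their source, such as miR-122 of hepatocytes, miR-375 of pancreatic islets, miR-133 of striated muscle and miR-451 of red cells.

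The mature sequences of the miRNAs on which the comparison turned are given from RefSeq for the rat genome build GRCr8, 5′ to 3′, with the seed in capitals. The first set holds the miRNAs with the smallest p-values for ZDF against WT under PTH, together with miR-145-3p, which ranked next and comes from the same genomic cluster as miR-143. RefSeq places miR-143-3p at chr18:57371373-57371394 and miR-145-3p at chr18:57369997-57370017, both on the minus strand, miR-375-3p at chr9:83906591-83906612 on the minus strand, miR-34a-5p at chr5:165815971-165815992 on the plus strand and miR-141-3p at chr4:159209540-159209561 on the minus strand. miR-429 also belongs to the first set.
rno-miR-143-3p: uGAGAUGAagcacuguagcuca
rno-miR-375-3p: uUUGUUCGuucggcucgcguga
rno-miR-34a-5p: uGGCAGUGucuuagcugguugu
rno-miR-141-3p: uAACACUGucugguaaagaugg
rno-miR-145-3p: gGAUUCCUggaaauacuguuc

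The second set holds the miRNAs that the study had listed for ZDF against WT rats under placebo and that were measured well enough to be tested under PTH, besides miR-375-3p. They are shown because the list allows the genotype difference under PTH to be set beside that under placebo. No pair of the sequences shown in the first and second sets shares a seed. miR-802-5p and miR-320-3p also belong to this set.
rno-miR-122-5p: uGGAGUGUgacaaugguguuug
rno-miR-122-3p: aACGCCAUcaucacacuaa
rno-miR-192-5p: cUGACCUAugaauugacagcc
rno-miR-31a-5p: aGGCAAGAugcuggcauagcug
rno-miR-145-5p: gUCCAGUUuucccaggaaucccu
rno-miR-100-5p: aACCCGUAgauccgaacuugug
rno-miR-199a-3p: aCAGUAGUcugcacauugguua
rno-miR-27a-5p: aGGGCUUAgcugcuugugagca

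The third set shows the muscle and red cell miRNAs whose levels varied most among rats of the same group or followed a single library. miR-133a-3p and miR-133b-3p share all bases but the last, so that their reads cannot be kept fully apart when a mismatch is allowed.
rno-miR-133a-3p: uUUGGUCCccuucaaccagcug
rno-miR-133b-3p: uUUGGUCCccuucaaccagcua
rno-miR-451-5p: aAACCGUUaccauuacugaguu

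The 10 libraries held between 53249 and 153860 reads of rat miRNAs, 0.837% to 4.09% of all library reads, and 297 to 343 miRNAs with at least 1 read. The median was 79847 miRNA reads in ZDF and 88587 in WT rats, and the groups did not differ by more than their spread (two-sided exact permutation test, p = 0.778). miRNA reads per read of the synthetic controls added during extraction were 0.1445 to 2.045 in ZDF and 0.08785 to 0.8498 in WT rats (p = 0.341, exact permutation test). ZDF replicate 3 and WT replicate 3 had the fewest extraction control reads, 51220 and 62662, and WT replicate 3 correlated least with its own group (median Pearson r across miRNAs = 0.7939). WT replicate 3 was the highest of the 10 libraries for 33 and the lowest for 26 of the 158 miRNAs tested. Of the 55 tested miRNAs selected for description, 47 changed sign or moved by over 1.5 times in log2 fold change when some single library was left out, and values without single libraries are given with the results. The other 8 were miR-375-3p, miR-34a-5p, miR-27a-3p, miR-140-5p, miR-192-5p, miR-421-3p, miR-423-3p and miR-500-3p. As a measure of red cell RNA in serum, miR-451-5p reads were divided by miR-23a-3p reads, and the log2 of this red cell ratio was -1.432 to 4.286 in ZDF and -1.554 to 1.324 in WT rats (p = 0.333, exact permutation test), and its part in the results was not tested beyond fits with the red cell ratio as a covariate.

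No miRNA differed between ZDF and WT serum under PTH at a false discovery rate (FDR) below 0.2. Of 476 miRNAs detected, 158 had enough reads to be tested by edgeR's quasi-likelihood test with Benjamini-Hochberg adjustment, 0% of them passed, and the lowest adjusted p was 0.896. An unadjusted p below 0.05 was reached by 5 of them (3.16%), all with a higher level in ZDF rats. DESeq2 called 0 and gave 5 at that unadjusted threshold. When all 476 miRNAs were fitted with independent filtering, the kind of filter the study used, miR-143-3p alone passed (log2 fold change 1.32, adjusted p = 0.176, edgeR). Independent filtering adjusts only over the miRNAs above an abundance cutoff, here the one that gave the most calls. Adjusted over all 476 miRNAs of the same fit, the p of miR-143-3p was 0.701 (edgeR). For none of the 158 (0%) were the ZDF and WT libraries separated without overlap. The log2 fold change (ZDF minus WT, on the scale of read counts normalized to library size by TMM, CPM) was above 0 for 74 (46.8%) and below 0 for 84 miRNAs (53.2%), between -1.35 and 1.54, and exceeded 1 in size for 9 (5.7%). Values on this scale are relative to the bulk of the miRNAs. Over the 158 miRNAs the median log2 fold change was -0.06, and it was 0.83 when the libraries were scaled to extraction control reads and -0.295 when they were scaled to all library reads. Lists are therefore also described by whether they lay above or below the median of all miRNAs under 5 scalings (TMM, RLE, miRNA totals, extraction controls and all library reads).

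Libraries of the same group varied more under PTH than under placebo by several measures, none of which was tested for a difference. The median standard error (SE) of the log2 fold change was 0.476 under PTH and 0.392 under placebo, and the biological coefficient of variation was 0.555 and 0.438. Under PTH the median SD of the log2 level was 0.726 in ZDF and 0.785 in WT rats, against 0.51 and 0.632 under placebo. The 95% confidence interval lay within a log2 difference of 1 in either direction for 15 of 158 miRNAs (9.49%) and within 2 for 137 (86.7%). Log2 differences beyond 2 were thus outside the interval for most miRNAs, and differences between 1 and 2 were not.

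**Figure D1:**
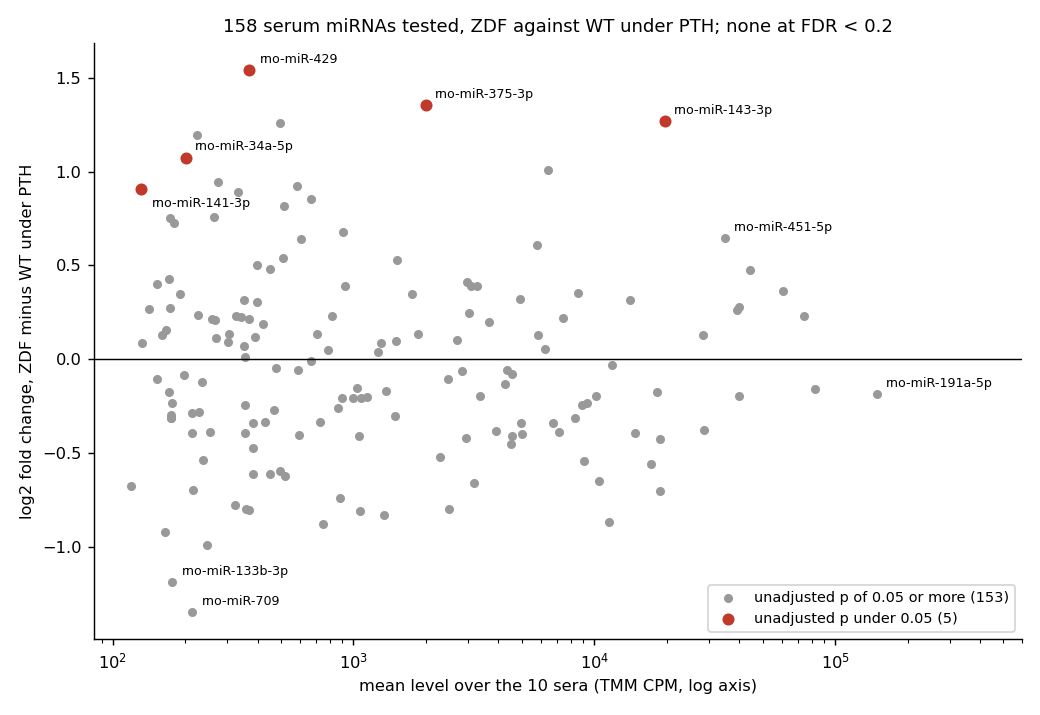
Log2 fold change between ZDF and WT serum under PTH (y axis) against the mean level over the 10 libraries (x axis, CPM, log axis) for the 158 miRNAs tested, with red points for the 5 with an unadjusted p below 0.05. All 5 red points lie above 0, and none of the 158 passed FDR < 0.2.

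The miRNA with the smallest p was miR-143-3p, which is enriched in smooth muscle and other mesenchymal cells. Its CPM was 69630, 20800, 16220, 8787 and 23280 in ZDF replicates 1 to 5 and 12450, 16980, 12350, 9098 and 6682 in WT replicates 1 to 5. ZDF replicate 1 stood far above all other libraries, ZDF replicates 2 and 5 were also above the WT range, and the remaining ZDF values lay within it. The log2 fold change was 1.27 ± 0.492 (SE; 95% confidence interval 0.22 to 2.32; unadjusted p = 0.0207, adjusted p = 0.896, edgeR), and without ZDF replicate 1 it was 0.62 with an unadjusted p of 0.134. With all detected miRNAs fitted, its adjusted p was 0.176 with independent filtering and 0.701 without it (edgeR). An exact permutation test of its level gave p = 0.111.

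miR-375-3p, which is enriched in pancreatic islets and in gut endocrine cells, had a CPM of 1823, 5201, 1300, 4985 and 1052 in ZDF replicates 1 to 5. In the WT replicates it was 1827, 1247, 427, 1126 and 968. ZDF replicates 2 and 4 were above every WT library and the other ZDF libraries lay inside the WT range. Its log2 fold change was 1.35 ± 0.528 (SE), with an unadjusted p of 0.0214 (edgeR, adjusted p = 0.896), and it remained between 1.01 and 1.57 when any single library was left out. The exact permutation test of miR-375-3p levels gave p = 0.103. This miRNA was also on the study's placebo list, with a log2 fold change of 2.30 under placebo.

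miR-34a-5p, a target of p53 that restrains cell division and osteoblast differentiation, was a rare serum miRNA with 3 to 28 reads per library. Its CPM was 359, 368, 284, 132 and 228 in the ZDF replicates and 117, 42.5, 196, 158 and 134 in the WT replicates. All ZDF libraries but replicate 4 were above all WT libraries, and the exact permutation test gave p = 0.0397. For ZDF against WT the log2 fold change was 1.07 ± 0.449 (SE; unadjusted p = 0.0298, adjusted p = 0.896, edgeR), and between 0.86 and 1.31 when any single library was left out.

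miR-429 and miR-141-3p both belong to the miR-200 family, which maintains the epithelial state. miR-429 had a CPM of 1220, 354, 414, 592 and 142 in ZDF and 147, 128, 534, 70.4 and 83.4 in WT replicates. All WT libraries except replicate 3 were at or below 147, and all ZDF libraries except replicate 5 were at or above 354. The exact permutation test of miR-429 levels gave p = 0.0714. The log2 fold change was 1.54 ± 0.66 (SE; unadjusted p = 0.0335, edgeR), and leaving out single libraries gave values from 1.00 without ZDF replicate 1 to 2.46 without WT replicate 3. Without WT replicate 3, its adjusted p was the lowest of that fit at 0.245. Leaving out both ZDF replicate 3 and WT replicate 3, a choice made after seeing the data, gave 2.43 with an adjusted p of 0.198 (edgeR), so that miR-429 was then the single miRNA below 0.2.

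miR-141-3p was present at 6 to 22 reads per library. Its CPM was 103, 163, 177, 289 and 123 in ZDF and 117, 85.0, 107, 88.0 and 58.4 in WT replicates. Only ZDF replicate 1 overlapped the WT range. This gave a log2 fold change of 0.91 ± 0.389 (SE; unadjusted p = 0.0339, adjusted p = 0.896, edgeR), and an exact permutation test gave p = 0.0238, where 5 against 5 libraries allow no p below 0.00794. miR-141-3p fell below the abundance filter in the fits without some libraries, and was between 0.59 and 1.05 in the 8 of them that retained it.

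**Figure D2:**
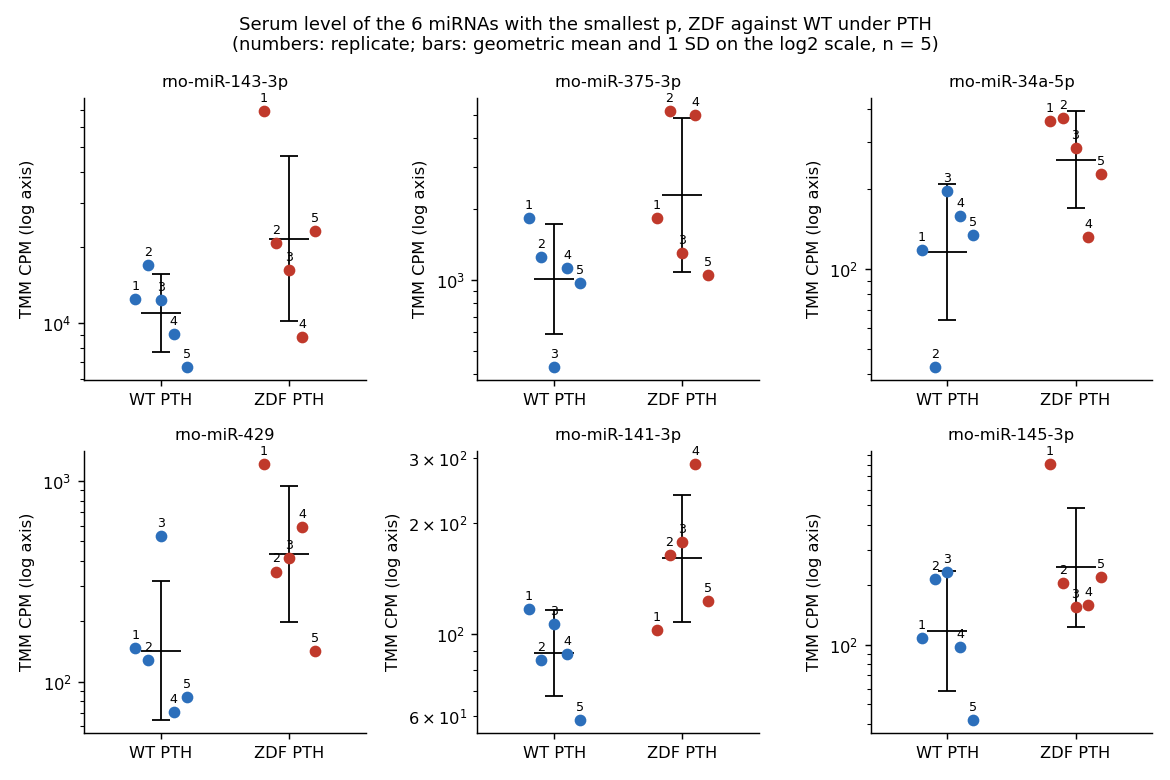
CPM (y axis, log axis) of the 6 miRNAs with the smallest p for ZDF against WT under PTH in each serum library, with replicate numbers beside the points and the geometric mean and 1 SD on the log2 scale as bars (n = 5). The groups overlap in every panel, and ZDF replicate 1 is the highest library for miR-143-3p, miR-429 and miR-145-3p.

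The next miRNAs in order of p did not reach 0.05. miR-145-3p, the minor arm of the vascular smooth muscle miRNA miR-145, had 154 to 218 CPM in all ZDF libraries but replicate 1, which was at 809, and 41.7 to 231 in WT rats. Its log2 fold change was 1.19 ± 0.586 (SE, unadjusted p = 0.0592, edgeR), and 0.48 without ZDF replicate 1. miR-709 had the lowest log2 fold change of all miRNAs tested, -1.35 ± 0.67 (SE, unadjusted p = 0.0625), with 35.5 to 270 CPM in ZDF and 50.05 to 623 in WT rats, and was at -0.84 without WT replicate 3. miR-146b-5p, which dampens inflammatory signalling, had a log2 fold change of 1.26 ± 0.679 that rested on ZDF replicate 3 (2103 CPM, all other libraries 123 to 658) and was 0.23 without it.

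miR-27a-3p, which regulates fat and bone cell differentiation, varied little within groups. It had 6534, 7352, 6358, 8669 and 7916 CPM in the ZDF replicates and 9779, 7583, 9446, 11310 and 15540 in the WT replicates. The WT values were the higher ones, with an overlap of ZDF replicates 4 and 5 and WT replicate 2. The log2 fold change was -0.54 ± 0.307 (SE, unadjusted p = 0.0972, edgeR), and the exact permutation test gave p = 0.0238. miR-23b-3p, from a related cluster, was at -0.79 ± 0.429 (SE), and at -0.47 without WT replicate 3. Scaling to extraction controls turned the sign of miR-27a-3p to 0.34.

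The remaining miRNAs of the 20 smallest p-values all had unadjusted p between 0.0868 and 0.153. Log2 fold changes below 0 were found for miR-193a-3p (-0.92), miR-500-3p (-0.80), miR-425-3p (-0.83), let-7a-5p (-0.99), let-7b-5p (-0.78) and miR-140-5p (-0.69). Without WT replicate 3 let-7a-5p and let-7b-5p were at 0.02 and -0.03, since this library held 996 and 1050 CPM, whereas all others held at most 229 and 334. miR-192-5p (1.01), miR-421-3p (0.75), miR-98-5p (0.89) and miR-144-5p (0.82) were above 0, of which miR-98-5p and miR-144-5p were at 0.37 and 0.33 without ZDF replicate 3. Without WT replicate 4 miR-193a-3p was at -0.48, and without WT replicate 5 miR-425-3p was at -0.39.

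The liver and gut miRNAs included miR-122 of hepatocytes, miR-192 of liver and intestinal epithelium, and miR-802, an islet and liver miRNA linked to glucose metabolism. All 4 members tested had a log2 fold change above 0, from 0.22 to 1.01 with a median of 0.73 against -0.06 for all miRNAs, and none passed the test. miR-192-5p, the most abundant of them, had 6457, 10410, 2458, 14940 and 8769 CPM in the ZDF replicates. In the WT replicates it had 7825, 5924, 623, 4532 and 2452. The ranges overlapped although 4 of 5 ZDF libraries were above the WT median, and the log2 fold change was 1.01 ± 0.571 (SE, unadjusted p = 0.0969, edgeR). In serum, a change in the number of cells that release a miRNA and a change in the release per cell cannot be told apart.

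miR-122-5p was detected at 1412, 422, 815, 447 and 749 CPM in the ZDF and 1153, 496, 88.9, 194 and 83.4 CPM in the WT replicates. Its log2 fold change was 0.92 ± 0.68 (SE, unadjusted p = 0.194), and it ranged from 0.61 without ZDF replicate 1 (unadjusted p = 0.399) to 1.82 without WT replicate 1 (unadjusted p = 0.0126). miR-122-3p, the other arm of the same hairpin, was at 0.22 ± 0.652, and between -0.13 without ZDF replicate 4 and 0.67 without WT replicate 2. miR-802-5p had 449, 436, 82.7, 1131 and 920 CPM in ZDF and 615, 850, 0, 370 and 234 CPM in WT replicates, with a log2 fold change of 0.54 ± 0.787 (SE) that ranged from 0.16 without ZDF replicate 4 to 1.01 without WT replicate 2. The single library without a read of miR-802-5p, WT replicate 3, was also the lowest for miR-192-5p and miR-122-3p.

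Of the pancreas list, 4 of 10 members were detected and miR-375-3p alone had enough reads to be tested. The summed level of the striated muscle miRNAs, of which 11 were detected, ranged from 245 to 23130 CPM in ZDF and from 733 to 45220 CPM in WT rats. miR-133a-3p made up most of it with 21220, 231, 12590, 1802 and 5043 CPM in the ZDF and 625, 14750, 43760, 12120 and 3328 CPM in the WT replicates. Rats of the same group thus differed far more than the groups, and the log2 fold change of -0.87 ± 0.973 (SE, unadjusted p = 0.387, edgeR) became 0.23 without WT replicate 3 and -1.59 without ZDF replicate 1. miR-133b-3p was at -1.19 ± 0.976 (SE), and at -0.62 and -2.13 without the same libraries.

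The red cell miRNAs showed the same dependence on single rats. miR-451-5p had 30950, 37020, 99690, 37880 and 6873 CPM in the ZDF and 28430, 47380, 23710, 24650 and 11600 CPM in the WT replicates. ZDF replicate 3 was the highest library for miR-451-5p, miR-486, miR-16-5p and miR-25-3p. For miR-451-5p the log2 fold change was 0.65 ± 0.547 (SE, unadjusted p = 0.256, edgeR), and 0.05 without this library. Of the 4 erythrocyte miRNAs tested, 3 were above 0 with a median of 0.44. A fit with the red cell ratio as a covariate says nothing further about this list, since the ratio contains miR-451-5p.

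**Figure D3:**
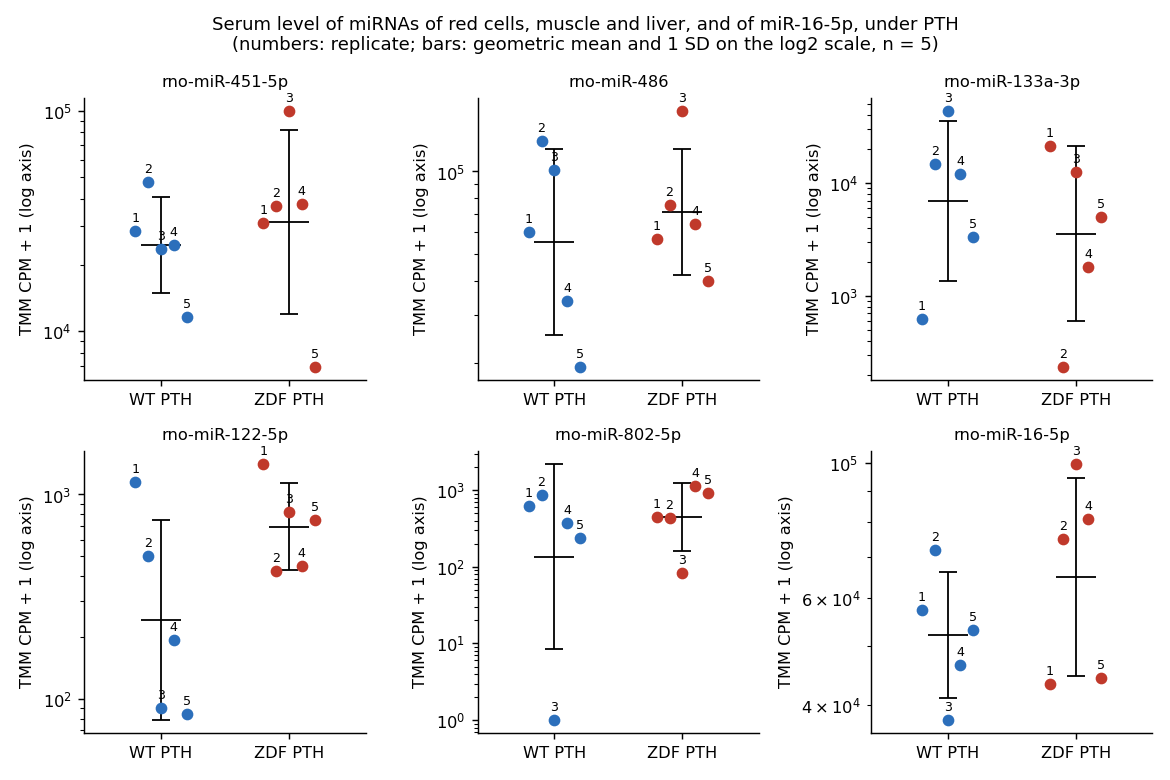
CPM plus 1 (y axis, log axis) of red cell miRNAs (miR-451-5p, miR-486), a muscle miRNA (miR-133a-3p), liver miRNAs (miR-122-5p, miR-802-5p) and the widely used reference miR-16-5p in each serum library under PTH, with replicate numbers, geometric mean and 1 SD on the log2 scale (n = 5). miR-133a-3p ranges from 231 to 43760 CPM, ZDF replicate 3 is the highest library for miR-451-5p, miR-486 and miR-16-5p, and WT replicate 3 has no read of miR-802-5p.

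Smooth muscle and epithelial miRNAs lay above 0 as far as they were tested. For smooth muscle, miR-143-3p, miR-145-3p and miR-145-5p had a median log2 fold change of 1.19. The most abundant arm of miR-145, miR-145-5p, had 7536, 5350, 1075, 6551 and 6892 CPM in ZDF and 3654, 8433, 1388, 5086 and 3345 CPM in WT replicates, with replicate 3 of both groups the lowest, and a log2 fold change of 0.32 ± 0.514 (SE; 0.21 without WT replicate 3, 0.73 without WT replicate 2). The 4 epithelial miRNAs tested were miR-429, miR-141-3p, miR-200a-3p (0.68) and miR-203a-3p (0.35), with a median of 0.79. Without WT replicate 3, miR-200a-3p was at 1.97 (adjusted p = 0.474, edgeR). With all libraries, 2 of 4 had an unadjusted p below 0.05, against 5 of 158 (3.16%) over all miRNAs. These 2 are the miRNAs already named for their small p. The sign of the median of these lists, and of the liver and gut list, was the same under these 5 scalings and with the red cell ratio as a covariate.

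For leukocytes, 2 of 7 miRNAs tested were above and 5 below 0 (median -0.40), the lower ones including both arms of miR-142 and of miR-150, miRNAs of blood and lymphoid cells. miR-223-3p, an abundant miRNA of myeloid cells, was at -0.17 ± 0.427 (SE) with means of 17150 CPM in ZDF and 19330 CPM in WT rats. The endothelial miRNAs miR-126a-5p (-0.39), miR-222-3p (-0.24), miR-126a-3p (-0.19) and miR-221-3p were all below 0 with a median of -0.22. Without WT replicate 2, miR-126a-5p and miR-126a-3p were at -0.10 and 0.02. When libraries were scaled to extraction controls the leukocyte and endothelial medians were 0.70 and 0.50, yet both were still below the median of all miRNAs, by 0.133 and 0.334, as they were under all 5 scalings.

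Members related to bone were tested because the rats had been studied for their bone phenotype. The osteoblast and mesenchyme miRNAs miR-199a-5p (-0.39), miR-214-3p (-0.34) and miR-199a-3p (0.23) had a median of -0.34, which lay below the median of all miRNAs under 4 of 5 scalings and above it by 0.299 when libraries were scaled to all library reads. Leaving out single libraries gave -0.78 to -0.14 for miR-199a-5p, -0.74 to 0.19 for miR-214-3p and -0.20 to 0.96 for miR-199a-3p. miR-140-5p and miR-140-3p, from an intron of a gene active in cartilage, were at -0.69 and -0.38, and at 0.37 and 0.55 under extraction control scaling, with a median below that of all miRNAs under all 5 scalings. miR-140-3p was at -0.09 without WT replicate 5. miR-140-5p was even in WT rats, with 241 to 293 CPM, while ZDF rats had 77.0, 272, 236, 145 and 94.8 CPM. Only ZDF replicate 2 lay within the WT range, and ZDF replicate 3 was just below it. The exact permutation test gave an unadjusted p of 0.0476, and edgeR gave an unadjusted p of 0.119 and an adjusted p of 0.896.

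Of 6 regulators of osteogenesis tested, 3 were above and 3 below 0 with a median of -0.09. Besides miR-34a-5p they included the miR-29 family, which targets collagen and other matrix messengers. miR-29a-3p (-0.20), miR-29b-3p (0.01) and miR-29c-3p (-0.65) did not pass the test, and miR-29c-3p had 4325 to 14150 CPM in ZDF and 6457 to 20650 CPM in WT rats and was at -0.38 without WT replicate 4. The nervous system list was represented by miR-128-3p (-0.70) and miR-132-3p (0.32), both of which are also made outside the brain, and without WT replicate 5 they were at -0.12 and 0.90.

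Families and genomic clusters were mixed in sign. Of the miR-23, miR-27 and miR-24 clusters, 6 of 7 miRNAs were below 0, with a median of -0.43, and 6 of 7 lay below the median of all miRNAs under all 5 scalings. The exception was miR-27a-5p at 0.48, whose partner arm miR-27a-3p was at -0.54. The miR-17-92 cluster, which promotes proliferation, had 2 of 6 members above 0 and the related miR-106b-25 cluster had 5 of 6, with medians of -0.14 and 0.25. With the red cell ratio as a covariate these medians were 0.06 and -0.16.

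The let-7 family, regulators of differentiation that share the seed GAGGUAG in their 5p arms, had 4 of 10 members above 0 (median -0.29), and its median lay below that of all miRNAs under all 5 scalings. Its members let-7a-1-3p and let-7c-2-3p had the same value, -0.31, and are counted here as separate entries although their reads may not be separable. The miR-30 family had 6 of 7 above 0 with a median of 0.25. With the red cell ratio as a covariate it had 4 of 7 above 0 with a median of 0.02. Its member miR-30e-3p was at 0.64, and at 0.03 without ZDF replicate 3. miR-99, miR-100 and miR-125 had 2 of 5 above 0 with a median of -0.06. Seeds were compared only among the 140 of 158 tested miRNAs whose sequence was matched by name, so families can lack members. Of the 8 seed families with at least 3 such members, 0 had all of these members on one side of 0. For 15 of 21 hairpins with both arms tested, the arms had the same sign.

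miRNAs that have been related to insulin sensitivity had 3 of 8 members above 0, with a median of -0.07. miR-107-3p, which lowers insulin sensitivity in liver and fat, was at -0.34, and the hypoxia miRNA miR-210-3p at -0.66, with 1695 to 3650 CPM in ZDF and 961 to 8984 CPM in WT rats. Without WT replicate 5, which held the 8984 CPM, they were at -0.04 and -0.07. miRNAs that often serve as serum references had 3 of 8 members above 0, with a median of -0.08. miR-423-3p had 2759 to 4041 CPM in ZDF and 2330 to 3019 CPM in WT rats, with a log2 fold change of 0.41.

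The most abundant miRNA was miR-191a-5p, which is widely expressed. It had 43070, 188700, 87190, 149500 and 230800 CPM in the ZDF and 227400, 70950, 83550, 83730 and 329700 CPM in the WT replicates, and the spread within each group exceeded the difference of the groups (log2 fold change -0.19 ± 0.536, SE, unadjusted p = 0.734, edgeR). miR-92a-3p, miR-486, miR-16-5p and miR-25-3p followed, with log2 fold changes of -0.16, 0.23, 0.36 and 0.48. Without ZDF replicate 3 miR-486 was at -0.21, miR-25-3p at -0.21 and miR-16-5p at 0.17, and without WT replicate 5 miR-191a-5p was at 0.27 and miR-92a-3p at 0.20.

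**Figure D4:**
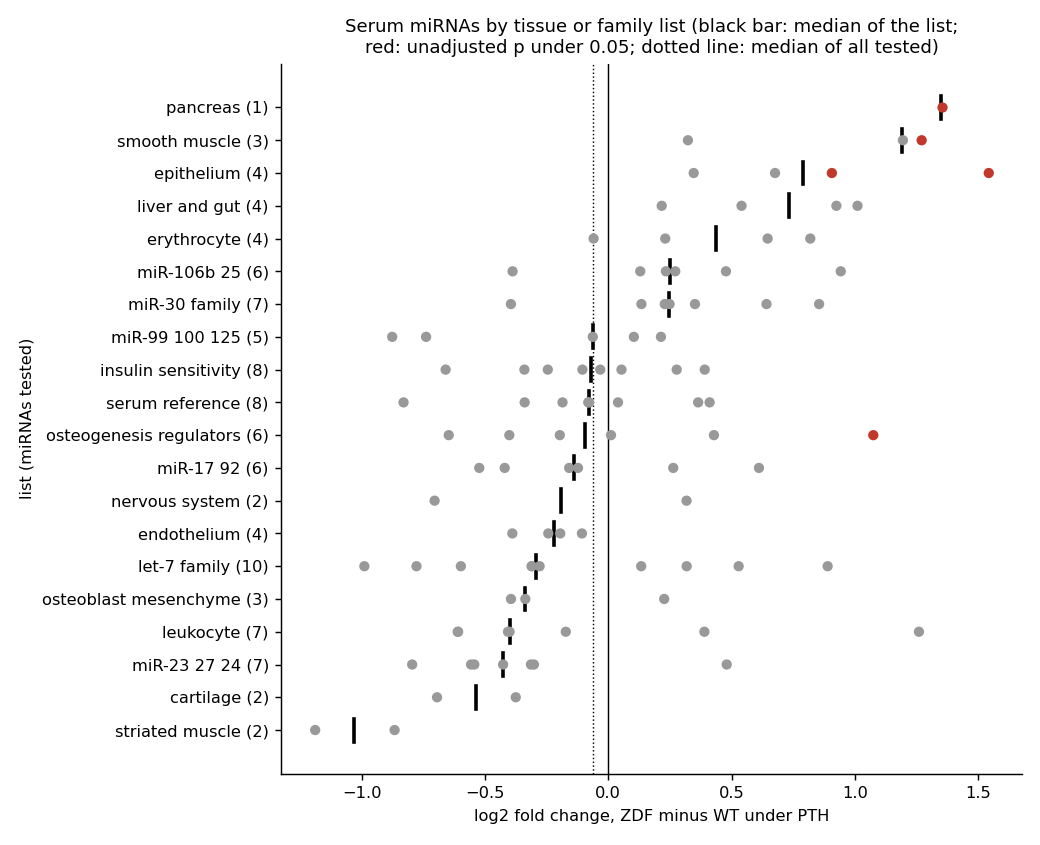
Log2 fold change between ZDF and WT serum under PTH (x axis) of each miRNA tested in 20 tissue or family lists (y axis), with black bars for the list medians, red points for an unadjusted p below 0.05 and a dotted line for the median of all 158 miRNAs. Pancreas, smooth muscle, epithelium and liver and gut lie to the right on this scale and striated muscle to the left, and relative to the median of all miRNAs these and 9 further list medians kept their side under all 5 scalings, whereas 6 did not.

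To place the genotype difference under PTH beside that of untreated rats, the miRNAs listed by the study for placebo serum were examined. The list had been chosen on the placebo samples, so the placebo values describe the choice and are not independent of it. Of 12 miRNAs listed, 11 were tested under PTH, and 0 passed FDR < 0.2, with miR-375-3p alone at an unadjusted p below 0.05. The log2 fold change had the same sign in 8 of 11 and was smaller in size under PTH in 11 of 11, with a median size of 0.48 under PTH and 1.82 under placebo. The SE was larger under PTH in 10 of 11. The 95% confidence interval under PTH included 0 for 10 of them and included the placebo value for 6.

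Values for single members show how unevenly this was distributed. miR-802-5p had a log2 fold change of 0.54 (95% confidence interval -1.14 to 2.22) under PTH, 2.71 under placebo and 1.57 under anti-sclerostin, and its PTH value was 0.16 to 1.01 when any single library was left out. For miR-122-5p they were 0.92 (-0.52 to 2.37), 1.94 and 2.56, and for miR-192-5p 1.01 (-0.21 to 2.22), 1.74 and 1.34. The 3 liver and gut miRNAs were thus above 0 under each treatment. With CPM normalized within each treatment, the mean of miR-802-5p in WT rats was 414 under PTH, 124.8 under placebo and 233 under anti-sclerostin, and in ZDF rats 604, 823 and 653.

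The miRNAs lower in ZDF rats under placebo went different ways under PTH. miR-27a-5p was at 0.48 under PTH and -1.84 under placebo, with 359, 735, 1276, 92.1 and 171 CPM in the ZDF and 899, 213, 107, 440 and 209 CPM in the WT replicates under PTH. Its value under PTH was -0.18 without ZDF replicate 3 and 1.06 without WT replicate 1. miR-199a-3p, a miRNA of mesenchymal cells and platelets, was at 0.23 and -1.82, and between -0.20 and 0.96 under PTH when any single library was left out. miR-100-5p, by contrast, was at -0.88 ± 0.694 (SE) under PTH and -1.31 under placebo, and under PTH at -0.08 without WT replicate 3 and -1.34 without ZDF replicate 1. miR-31a-5p, miR-145-5p and miR-320-3p were at 0.43, 0.32 and -0.03 under PTH and at 1.68, 1.07 and 0.82 under placebo. When any single library was left out, miR-31a-5p ranged from 0.17 to 0.98 and miR-320-3p from -0.47 to 0.16 under PTH. The 12th miRNA, miR-218a-5p, had 0 to 79 reads per library and 0 to 1405 CPM under PTH and was not tested.

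**Figure D5:**
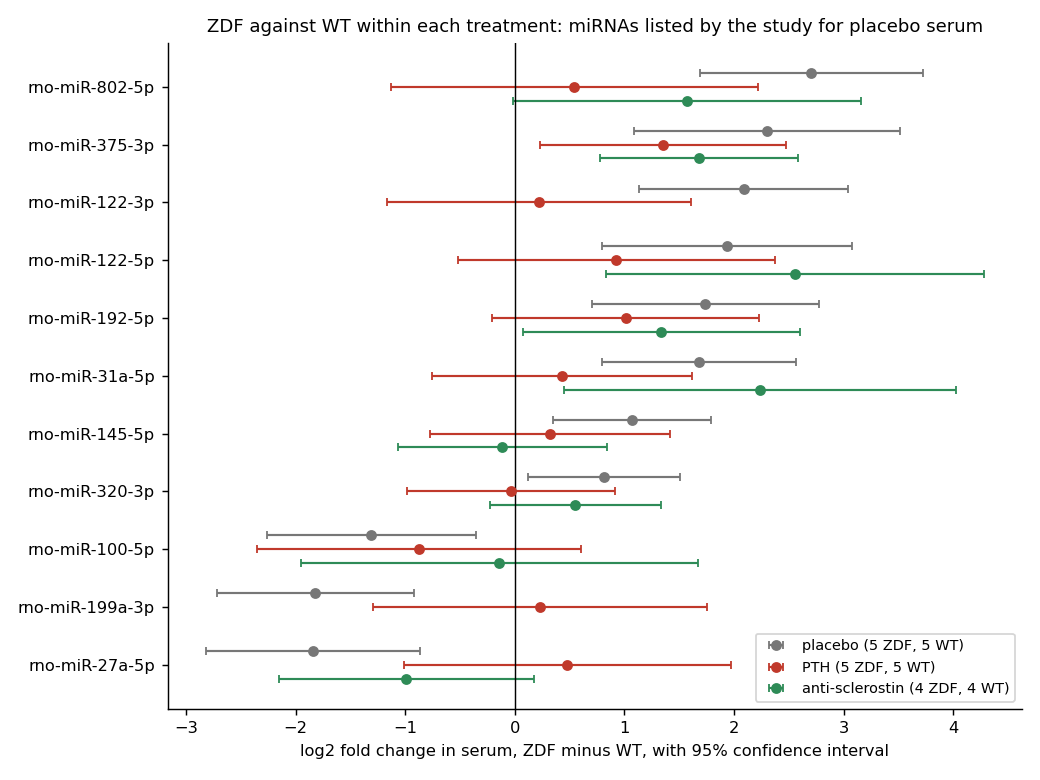
Log2 fold change between ZDF and WT serum with its 95% confidence interval (x axis) within placebo, PTH and anti-sclerostin treatment for the 11 miRNAs (y axis) of the study's placebo list that were tested under PTH; miR-122-3p and miR-199a-3p were not tested under anti-sclerostin. The PTH values are closer to 0 than the placebo values for all 11, which were listed for their placebo difference, and 10 of the 11 PTH intervals include 0.

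Whether the genotype difference itself differed between PTH and placebo was tested as an interaction over 20 sera. Of 182 miRNAs tested, 0 passed FDR < 0.2 (0%; lowest adjusted p = 0.922, edgeR) and 8 had an unadjusted p below 0.05 (4.4%). DESeq2 called 0 and gave 10 at that unadjusted threshold. The 8 were miR-27a-5p (2.31 ± 0.878, SE, for the ZDF-WT difference under PTH minus that under placebo), miR-802-5p (-2.20 ± 0.982), miR-199a-3p (1.97), miR-122-3p (-1.92), miR-451-5p (1.84), miR-193a-3p (-1.72), miR-34a-5p (1.43) and miR-19a-3p (1.19). The first 4 of these are on the placebo list so that their values here are not independent of that choice. With the red cell ratio as a covariate 2 miRNAs, and without WT replicate 3 of the PTH group 19 miRNAs, had an unadjusted p below 0.05. Scaling to extraction controls gave 33 of 182 at that unadjusted threshold. In each of these fits 0 passed FDR < 0.2. Testing all 519 miRNAs gave 0 below FDR 0.2 without independent filtering, but did change the count with it, to 6 (edgeR). They were miR-802-5p (-2.25), miR-27a-5p (2.23), miR-451-5p (1.76), miR-344a-3p, miR-192-3p and miR-1949, of which the last 3 had at most 24 reads in any library, were removed by the abundance filter otherwise, and are named after their values were seen.

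Across the 155 miRNAs tested under both treatments, the ZDF-WT difference had the same sign under PTH and placebo for 87 (56.1%), and the log2 fold changes correlated with Pearson's r = 0.304 and Spearman's rho = 0.218. These describe miRNAs measured in the same libraries, which are not independent replicates. For comparison, 10 of 164 miRNAs (6.1%) passed FDR < 0.2 under placebo by the same test, 7 higher (4.27%) and 3 lower (1.83%) in ZDF rats, and 0 of 161 (0%) under anti-sclerostin, where 11 (6.83%) had an unadjusted p below 0.05 and the groups held 4 libraries each. Passing under placebo and not under PTH does not show a difference between the treatments, for which the interaction is the test.

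The 318 miRNAs removed before testing for low counts held at most 79 reads in any library, and for 0 of them were the reads of the groups without overlap. Of all miRNAs detected, 44 were found only in ZDF libraries, each with at most 5 reads in total over these libraries. Another 47 were found only in WT libraries, each with at most 9 reads in total. A difference in these miRNAs was not detectable at this depth.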

How the data were processed

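Serum small RNA libraries (RealSeq-Biofluids, with synthetic extraction controls) were trimmed, aligned to the rat genome and to miRBase and quantified with miRDeep2 by the authors. The deposited files give raw read counts per miRNA and, per the file headers, library-scaled values (RPM); a further deposited column of values relative to the miRNA reads was not used. Counts were analysed. The deposited RPM served only to recover the total reads of each library.

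Counts of rows with rat miRNA names were filtered with filterByExpr (minimum count 10), normalized by TMM and tested with edgeR 4.0.16 (quasi-likelihood, ZDF and WT under PTH only, FDR < 0.2) in R 4.3.3. The study used independent filtering, which is given as an alternative. The genotype by treatment interaction was fitted over PTH and placebo sera. Levels are TMM CPM. Exact permutation tests of levels used log2(CPM + 1), and their p-values were not adjusted for the number of miRNAs. Alternatives were other filters, size factors, scaling to extraction controls or library reads, DESeq2 1.42.0, other edgeR settings, a red cell covariate, and leaving out each library. Depth was 53249 to 153860 miRNA reads per library.

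Replicate numbers follow accession order. The labels give separate sera without animal identifiers, so p-values measure the spread between these samples. The members and lists were chosen with earlier results of these data known. Named miRNAs were the study's placebo list of 12, the 20 smallest p-values, the 5 most abundant, and the 2 smallest p-values of each list.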

Additional observations from a re-analysis of the deposited data

Results flagged for a closer look

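Within the groups of 5 sera, the highest or lowest library was set against the others with Dixon's test at the 95% level for 120 group values, and 7 (5.83%) stood apart, where chance gives about 1 in 20, or 6. miR-145-3p was at 809 CPM in ZDF replicate 1 and at 154 to 218 CPM in the other ZDF libraries. miR-140-3p was at 16100 CPM in the same library, below the other ZDF libraries (25100 to 30100 CPM). miR-145-5p was at 1080 CPM in ZDF replicate 3, against 5350 to 7540 CPM in the other ZDF libraries. In WT replicate 3 miR-802-5p had 0 CPM (others 234 to 850 CPM) and miR-30a-3p had 1160 CPM (others 220 to 354 CPM). miRNA reads per extraction control read were 2.045 in ZDF replicate 3 and 0.8498 in WT replicate 3, each the highest of its group. For 0 of the 155 miRNAs tested under both PTH and placebo did all libraries move one way under one treatment and the opposite way under the other. This count could not have been higher, since the ZDF and WT libraries overlapped for every miRNA tested under PTH.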

How the results depend on the processing

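The number of miRNAs below FDR 0.2 for ZDF against WT under PTH was 0 under every alternative except 2. With all 476 miRNAs of at least 1 read and independent filtering it was 1, higher in ZDF (miR-143-3p, log2 fold change 1.32, adjusted p = 0.176). Without ZDF replicate 3 and WT replicate 3, chosen after seeing the data, it was 1, higher in ZDF (miR-429, 2.43). For the interaction, independent filtering over all miRNAs gave 6, and all other alternatives gave 0. Unadjusted p-values below 0.05 numbered 2 to 16 when any single library was left out. Without WT replicate 3 they numbered 16 of 167 (9.58%), all higher in ZDF, and without WT replicate 1 they numbered 10 of 161. In the other fits they numbered 0 to 22. For the interaction they numbered 2 to 33, with 33 of 182 when libraries were scaled to extraction controls.

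No paired analysis was possible because the replicate numbers follow accession order and the labels tie no ZDF rat to a WT rat. RLE factors, miRNA totals without TMM, DESeq2, the other edgeR settings, a fit of all sera, filterByExpr with independent filtering, no filter beyond 1 read and FDR < 0.05 turned the sign of 0 of 55 named miRNAs tested. Scaling to extraction controls turned 17, all to above 0 while the median of all miRNAs shifted by 0.895: miR-500-3p 0.069, miR-27a-3p 0.34, miR-425-3p 0.12, miR-140-5p 0.37, miR-320-3p 0.56, miR-191a-5p 0.64, miR-92a-3p 1.06, miR-126a-5p 0.57, miR-126a-3p 0.86, miR-199a-5p 0.40, miR-214-3p 0.26, miR-140-3p 0.55, miR-128-3p 0.19, miR-29c-3p 0.44, miR-20a-5p 0.67, miR-210-3p 0.60 and miR-107-3p 0.70. Scaling to all library reads turned miR-214-3p to 0.0045 and miR-132-3p to -0.21. The red cell covariate, which contains miR-451-5p, turned miR-27a-5p to -0.26, miR-320-3p to 0.18, miR-191a-5p to 0.18, miR-92a-3p to 0.031, miR-486 to -0.18, miR-25-3p to -0.28, miR-451-5p to -0.25, miR-106b-3p to -0.48 and miR-30e-3p to -0.019. Without ZDF replicate 3 and WT replicate 3, let-7a-5p was at 0.0053, miR-27a-5p at -0.39, miR-486 at -0.038, miR-25-3p at -0.0013 and miR-106b-3p at -0.045. When single libraries were left out, 13 changed sign: miR-199a-3p ranged from -0.20 to 0.96, miR-320-3p from -0.47 to 0.16, miR-126a-3p from -0.34 to 0.017, let-7a-5p from -1.30 to 0.023, miR-122-3p from -0.13 to 0.67, miR-133a-3p from -1.59 to 0.23, miR-214-3p from -0.74 to 0.19, miR-191a-5p from -0.44 to 0.27, miR-92a-3p from -0.34 to 0.20, miR-486 from -0.21 to 0.57, miR-27a-5p from -0.18 to 1.06, miR-25-3p from -0.21 to 0.71 and miR-106b-3p from -0.28 to 1.24. None of these passed FDR < 0.2, and the cause of the changes was not tested.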
